A study of Mus musculus with 2 samples.

Results

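The Notch receptors Notch1, Notch2, Notch3 and Notch4 and the ligands Dll1, Dll3, Dll4, Jag1 and Jag2 were described in every cell class of the adult mouse vomeronasal organ, with most room given to vessels, connective tissue, epithelium, glia and immune cells. The 9 genes were taken by name, with no threshold on a measured value, from the 32285 genes in the count table. Earlier results of these data were known when they were chosen. Vomeronasal organs, 5 in number per the labels, came from wild-type C57BL/6J male mice at postnatal day 60, and the cells were frozen, thawed and sequenced as 2 droplet libraries. There was no treatment and no mutant, and the sources used here do not say how the organs were divided between the libraries. The p-values below therefore measure the spread between 2 libraries, which may be technical.

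Notch receptors are single-pass proteins that bind ligands on a neighbouring cell. Binding lets proteases cut the receptor, and the freed inner part joins RBPJ in the nucleus and switches on genes of the Hes and Hey families. Dll1, Dll4, Jag1 and Jag2 activate receptors on the next cell, whereas Dll3 acts mainly inside the cell that makes it. In vessels, Dll4, Notch1 and Notch4 are known from endothelial cells, arteries above all, and Notch3 from pericytes and smooth muscle cells. In stratified epithelia, Notch ligands are known from basal cells, the stem cell layer.

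Of 24084 barcodes, 10591 passed the quality limits (5694 in library 1 and 4897 in library 2) with a median of 6668 and 6649 unique molecular identifiers (UMIs). Clusters were named with the suffix -like from fixed marker genes, which gave 19 classes of 51 to 1684 cells and left 1893 cells in 12 clusters or sub-clusters with no name. No cluster was named mural-like (pericytes and smooth muscle) among cells with at most 5% mitochondrial UMIs, where a stromal sub-cluster of 67 cells that raised 10 of 15 mural markers also raised 8 of 8 macrophage markers and had no name. Mural-like cells were therefore taken at a limit of 10%, where 182 were found. Levels are UMIs scaled to 1e6 UMIs of a class (counts per 1e6, CPM), with the value of library 1 given before that of library 2. Library 2 was the higher in 46 of 55 pairs of member and class with at least 20 UMIs, by a median ratio of 1.37. A cluster with no name, led by Myh11, held 211 of its 214 cells in library 1. In that cluster 4 of 15 mural and 3 of 8 sustentacular markers were raised. Of the kept cells, 3 barcodes occurred in both libraries.

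**Figure D1:**
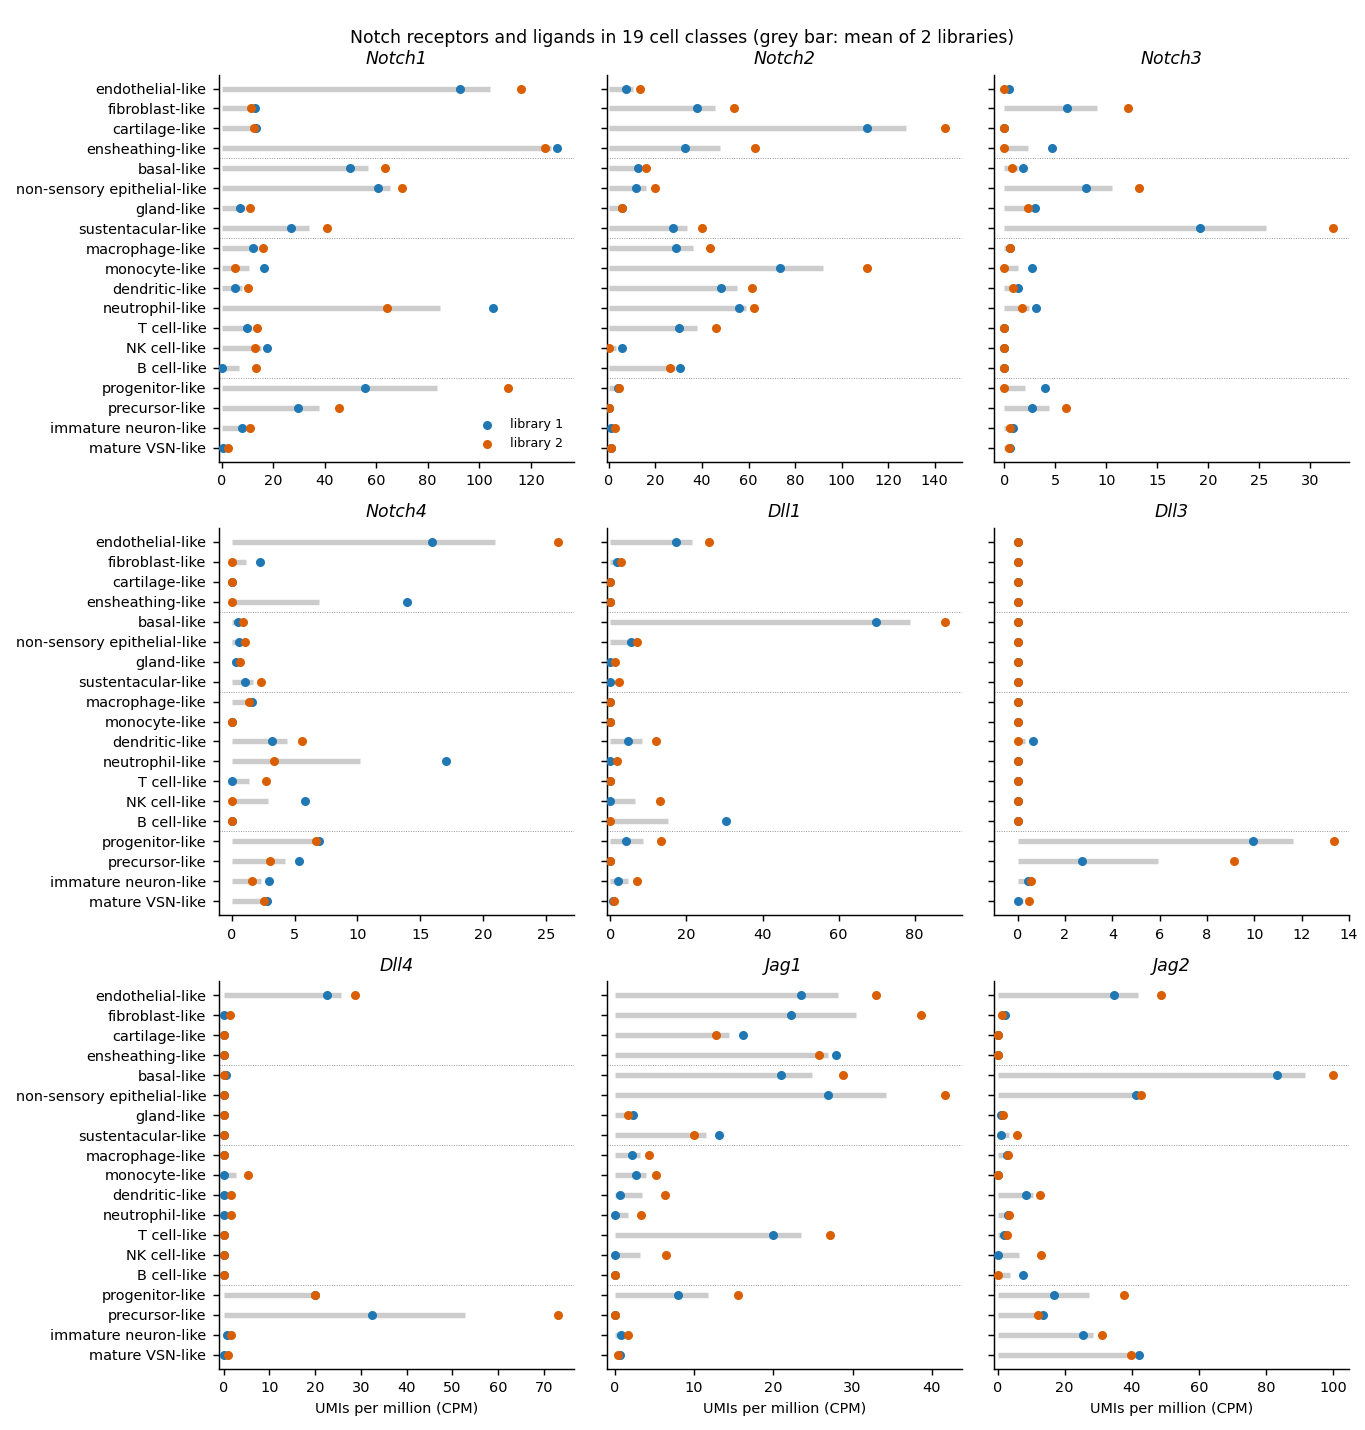
Level in CPM (x axis) of each of the 9 genes in 19 cell classes (y axis); points are the 2 libraries and the grey bar is their mean. Dll1 (69.7 and 88.0) and Jag2 (83.2 and 99.9) are highest in basal-like cells, whereas the highest Dll4 points are those of precursor- and endothelial-like cells.

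The genes lie on 5 chromosomes (GRCm38, GENCODE vM21, whole gene bodies). Notch1 spans chr2:26457903-26516663 (minus strand), Notch2 chr3:98013527-98150361 (plus), Notch3 chr17:32120820-32166852 (minus) and Notch4 chr17:34564268-34588503 (plus). Dll1 spans chr17:15367354-15376872 (minus), Dll3 chr7:28293553-28302238 (minus), Dll4 chr2:119325784-119335962 (plus), Jag1 chr2:137081456-137116644 (minus) and Jag2 chr12:112907819-112929776 (minus). Whether any counts were shared with an overlapping gene on the opposite strand was not tested, and the sources used here do not say how strand entered the counting. Gm17276 overlaps Notch3 over 21024 bases, Gm14207 overlaps the start of Dll4 over 411 bases, and 0610009E02Rik and Gm13568 overlap Notch1.

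Notch1, which had UMIs in all 19 classes, had its highest level in ensheathing-like cells, the glia around vomeronasal axons, at 130.3 and 125.4 CPM. Endothelial-like cells followed with 92.3 and 116 CPM, neutrophil-like cells with 105 and 64.2, progenitor-like cells with 55.7 and 111 and non-sensory epithelial-like cells with 60.8 and 69.8. From endothelial- down to basal-like cells each class overlapped its neighbour between libraries. Set side by side within each library, only the last pair kept its order, with non-sensory epithelial- above basal-like cells. Endothelial-like cells did lie above non-sensory epithelial-like cells in both libraries. Basal-like cells had 49.9 and 63.6 CPM of Notch1, sustentacular-like cells 26.8 and 41.0, fibroblast-like cells 12.8 and 11.4 and gland-like cells 7.22 and 11.1. The lowest mean was that of mature vomeronasal sensory neuron (VSN)-like cells, at 0.533 and 2.33 CPM. Of all 2890 Notch1 UMIs in the kept cells, 27.2% lay in basal-like and 18% in endothelial-like cells. Of the 6145 at the 10% limit, basal-like cells held 14.8%, endothelial-like cells 10.0% and cells with no named class 29.8%.

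Notch2 was arranged differently and was low in endothelial-like cells. Cartilage-like cells had 110.9 and 144.5 CPM of Notch2 and monocyte-like cells 73.5 and 110.9. These ranges met, although cartilage-like cells were the higher in each library. Neutrophil-like (55.8 and 62.5), dendritic-like (48.4 and 61.6), ensheathing-like (32.6 and 62.7), fibroblast-like (37.9 and 53.6), T cell-like (30 and 46.1), macrophage-like (28.9 and 43.3) and sustentacular-like cells (27.4 and 39.9) followed, each overlapping the next. Endothelial-like cells had 7.14 and 13.2 CPM, and precursor-like cells had no Notch2 UMI, which allows up to 4.29 CPM.

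Notch3 had 467 UMIs in the kept cells. At the 5% limit the highest level in a named class was that of sustentacular-like cells, the supporting cells of the sensory epithelium, at 19.2 and 32.2 CPM, above non-sensory epithelial-like (7.97 and 13.2) and fibroblast-like cells (6.13 and 12.1) in each library. Of the Notch3 UMIs, 44.8% were in cells with no name, and 141 came from 1 cluster of 305 cells with a median of 27335 UMIs, in which 3 of 8 sustentacular and 3 of 10 mature VSN markers were raised. In that cluster Notch3 stood at 12.7 and 17.6 CPM. Mural markers had a sum of 18.1 and 62.7 CPM in sustentacular-like cells, 9 of 15 were detected, and the pericyte markers Kcnj8, Abcc9, Higd1b and Vtn were at 0.

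Notch4 was the rarest receptor, with 274 UMIs, 38.3% of them endothelial. The endothelial share was 25.3% of 502 UMIs at the 10% limit. Endothelial-like cells had 16 and 25.9 CPM of Notch4. Neutrophil-like cells had 17 in library 1 and 3.38 in library 2, from 13 UMIs, so that they could not be placed above or below endothelial-like cells. Progenitor-like cells had 6.96 and 6.68 CPM and mature VSN-like cells 2.84 and 2.56, and basal-, gland- and non-sensory epithelial-like cells each stayed at or below 1.04.

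Dll1, a Delta-type ligand, was mostly a gene of basal-like cells, which held 78.1% of its 1400 UMIs at the 5% limit, at 69.7 and 88.0 CPM. Endothelial-like cells came next by their mean, at 17.2 and 25.9 CPM, and overlapped B cell-like cells, which had 30.4 and 0 CPM from 4 UMIs. Dendritic-like cells had 4.51 and 12 CPM, and no Dll1 UMI was seen in macrophage-like cells, which allows up to 0.405 CPM. Within basal-like cells, the larger cluster led by Trp63 (1305 cells) had 79.0 and 100.4 CPM and the cluster led by Krt15 (251 cells) 36.3 and 39.8. The Krt15 cluster raised 6 of 6 basal and 4 of 6 non-sensory epithelial markers, and the Trp63 cluster 6 of 6 basal markers alone. The difference in Dll1 between these 2 clusters was not tested. At the 10% limit, Krt15 was among the leading genes of the non-sensory epithelial-like cluster (1657 cells), which raised 6 of 6 markers of both lists. There, basal-like cells held 63.5% of 1951 Dll1 UMIs and non-sensory epithelial-like cells 15.1%.

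Dll3 had 30 UMIs in all, 53.3% of them in progenitor-like cells at 9.95 and 13.4 CPM. Precursor-like cells had 2.70 and 9.12 CPM of Dll3. Among the other named classes, immature neuron-like and mature VSN-like cells had 2 UMIs each, dendritic-like cells 1, and 14 classes none. At the 10% limit Dll3 had 80 UMIs, of which progenitor-like cells held 22.5% and cells with no named class 65%. There, 33 UMIs came from 1 cluster of 89 cells led by Gnat3 and Gnb3, in which 5 of 5 tuft markers were raised, at 30.1 and 21.5 CPM.

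Dll4 had 225 UMIs and sat in vessels and in the youngest neural cells. Endothelial-like cells held 56.9% of them at 22.7 and 28.6 CPM, precursor-like cells 16% at 32.3 and 73.0 CPM, and progenitor-like cells 12.9% at 19.9 and 20 CPM. These 3 classes did not overlap each other in the order of their means. No other class passed 5.28 CPM in either library, and sustentacular-, gland-, macrophage- and non-sensory epithelial-like cells had no Dll4 UMI, which allows up to 0.850, 0.290, 0.405 and 0.479 CPM.

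Jag1, a Serrate-type ligand, was the most evenly spread ligand. Non-sensory epithelial-like cells had 26.9 and 41.7 CPM, fibroblast-like cells 22.3 and 38.6, endothelial-like cells 23.5 and 32.9, ensheathing-like cells 27.9 and 25.8, basal-like cells 21 and 28.8 and T cell-like cells 20 and 27.1. Neighbours among these 6 classes overlapped, so no full order can be given. Within each library, non-sensory epithelial- lay above fibroblast-like cells and basal- above T cell-like cells, while the other neighbours changed order. Sustentacular-like cells had 13.1 and 9.96 CPM of Jag1, and mature VSN-like cells 0.711 and 0.466.

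Jag2 was led by basal-like cells, at 83.2 and 99.9 CPM and with 43.6% of its 2918 UMIs. Non-sensory epithelial-like (41.3 and 42.7), endothelial-like (34.8 and 48.8) and mature VSN-like cells (42.1 and 39.8) followed and overlapped. Mature VSN-like cells thus held 14% of the Jag2 UMIs, although all 4 receptors were at or below 2.84 CPM there in both libraries. The Trp63 and Krt15 clusters of basal-like cells had 85.5 and 102.6 against 75.0 and 89.5 CPM of Jag2. Ensheathing-, cartilage- and monocyte-like cells had no Jag2 UMI.

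Endothelial-like cells (653) were compared with fibroblast-like cells (389) to ask which Notch genes set vessels apart from the surrounding stroma. By edgeR's quasi-likelihood test on UMIs summed per library, 7 of the 8 members tested passed an adjusted p of 0.05, where 43.7% of all 12882 genes tested did (20.5% higher and 23.2% lower in endothelial-like cells). Of the 7 members, 5 were higher and 2 lower. Notch1 was higher in endothelial-like cells by 3.08 ± 0.22 on the log2 scale (SE, 2 libraries a class, adjusted p = 3.9e-10), Notch4 by 3.99 ± 0.56, Dll1 by 3.25 ± 0.44 and Jag2 by 4.42 ± 0.39. Dll4 was also higher, with 128 UMIs against 2 in fibroblast-like cells, a ratio of 41.2 with a counting interval of 11.2 to 344. Notch2 was lower by 2.15 ± 0.28 on that scale, and Notch3 was lower with 1 UMI against 28, a ratio of 0.0230 (0.000562 to 0.139). Jag1 did not pass, at -0.09 ± 0.26 (adjusted p = 0.82). The median of the 8 members was 3.16, beside -0.00365 for all genes tested. Mural markers had a sum of 10145 and 8726 CPM in the fibroblast-like cells, with 13 of 15 detected and Higd1b and Vtn at 0.

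The fibroblast-like cells were 3 stromal sub-clusters, and 2 of them (119 and 82 cells, 201 in all) raised 5 of 15 mural markers and not the fibroblast list against the other stromal cells. Fibroblast markers had a sum of 48310 and 44396 CPM in the remaining sub-cluster, led by Pi16 (188 cells), against 19279 and 21955 in the 119 cells and 27860 and 23410 in the 82. Mural markers had a sum of 1710 and 1960 CPM in the Pi16 sub-cluster, against 16812 and 14294 and 16131 and 14296 in the others. Fibroblast Notch3 lay mostly in the sub-cluster with the lowest mural sum: the Pi16 sub-cluster held 25 of the 28 UMIs, at 11.6 and 25.3 CPM. Notch2 stood at 42.4 and 45.9 CPM there and at 46.1 and 62.2 in the 119 cells. With the 201 cells left out, an alternative added after the data were seen, the same members passed edgeR's test, and Notch1 was higher in endothelial-like cells by 2.79 ± 0.28, Dll1 by 4.78 ± 0.76 and Jag2 by 4.80 ± 0.58, with Jag1 at -0.45 ± 0.27 (adjusted p = 0.22).

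Among the other pathway genes in this comparison, the glycosyltransferases Mfng and Lfng, which change how a receptor answers Delta and Jagged ligands, were higher by 6.63 ± 0.32 and 4.36 ± 0.45. Mfng stood at 132 and 131 CPM in endothelial-like cells. Egfl7, a secreted endothelial protein counted among the atypical ligands, was higher by 7.18 ± 0.22, and Neurl3, a Neuralized-family ubiquitin ligase, by 6.98 ± 0.52. The target Nrarp, a feedback inhibitor, was higher by 5.05 ± 0.74, whereas Heyl fell by 6.86 ± 0.57 on that scale and Hey1 by 1.93 ± 0.35. In all, 5 of 14 receptor-processing genes were higher and 1 lower, 2 of 6 ligand-endocytosis genes were higher, 2 of 10 nuclear-complex genes were higher and 1 lower, 3 of 8 inhibitors were higher and 3 lower, 1 of 2 atypical ligands went each way, and 2 of 8 targets were higher and 4 lower.

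**Figure D2:**
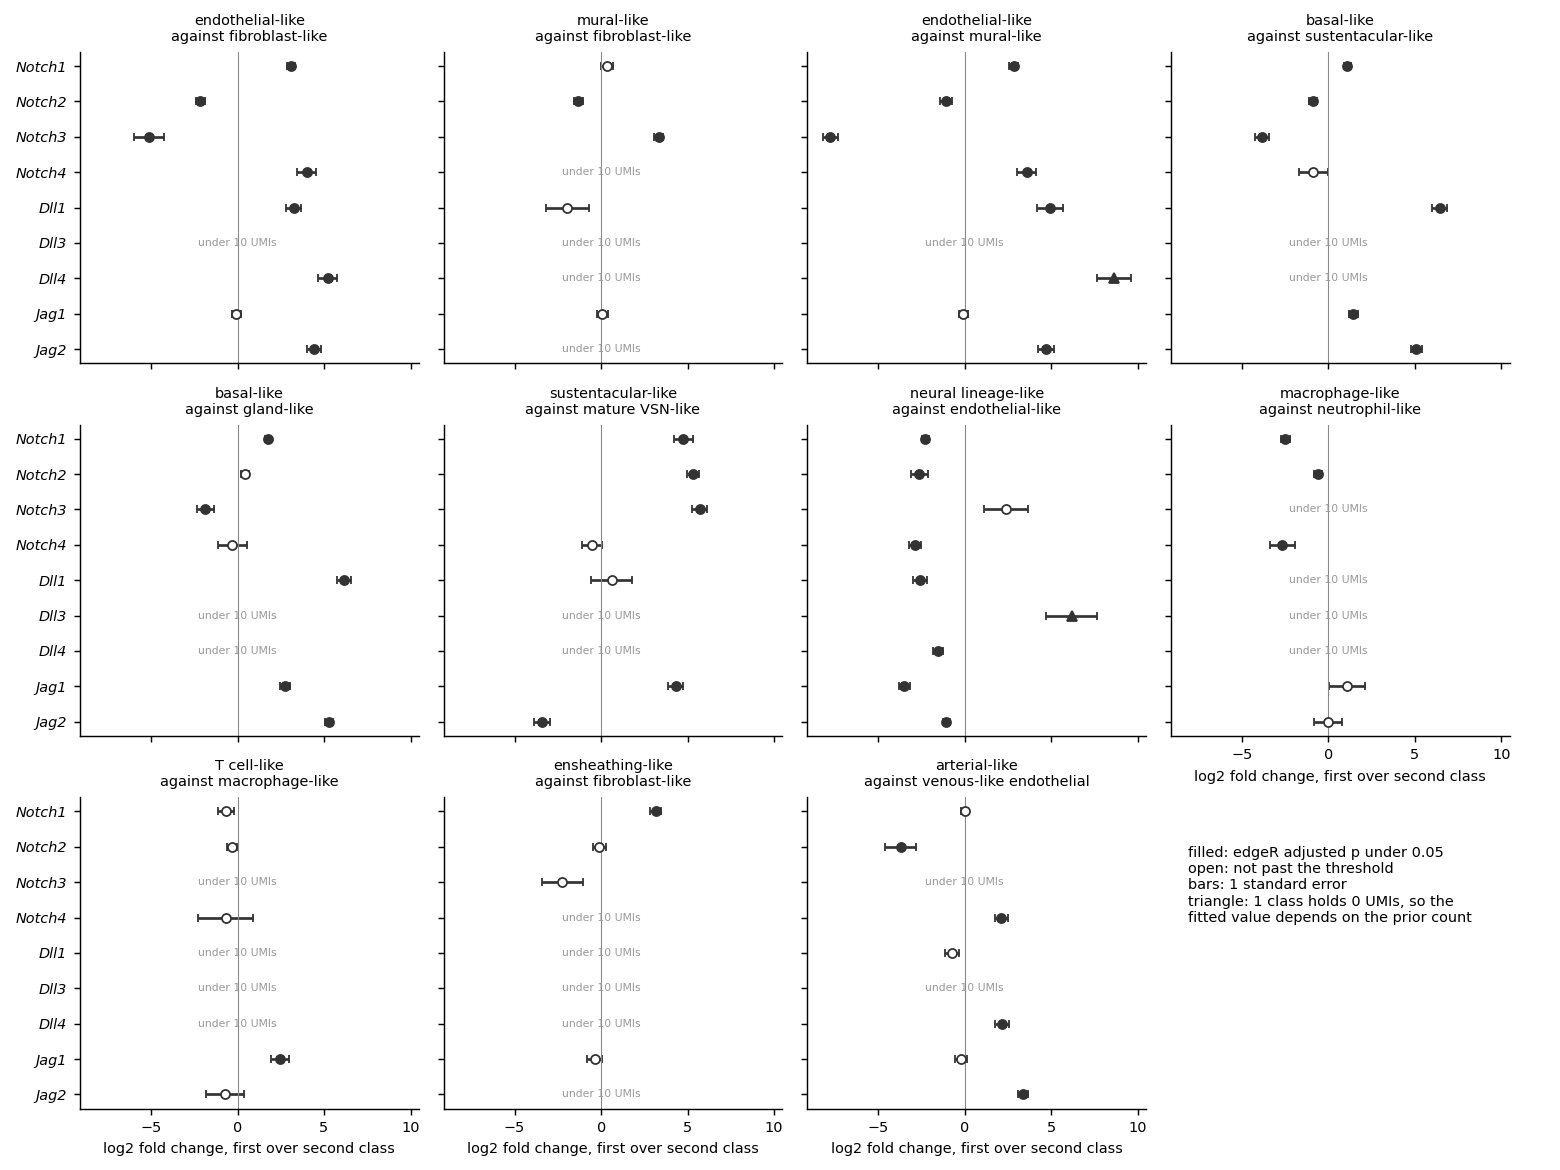
Fitted log2 fold change (x axis, first class over second) of each member (y axis) in 11 comparisons of cell classes, with 1 standard error; filled symbols passed an adjusted p of 0.05 in edgeR, open ones did not, and triangles mark members with 0 UMIs in 1 class, whose fitted size depends on the prior count. In the panel of endothelial- against fibroblast-like cells, 7 of 8 members are filled and Jag1 lies at -0.09.

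Within the endothelial-like cells, arterial-like (149 cells), venous-like (292), lymphatic-like (35) and a further sub-cluster led by Cyp2e1 (177) were told apart. Notch4, Dll4 and Jag2 were high together in the arterial-like cells. Notch4 stood at 42.2 and 71.7 CPM there against 7.09 and 15.1 in venous-like cells, Dll4 at 40.0 and 64.0 against 6.30 and 13.6, and Jag2 at 103 and 167 against 10.2 and 12.1. The libraries of the 2 groups did not overlap for these 3 genes. The edgeR differences were 2.12 ± 0.38 (adjusted p = 3.6e-05), 2.15 ± 0.39 (5.1e-05) and 3.37 ± 0.30 (8.4e-12) on the log2 scale. Notch2 was lower, with 1 UMI against 39, a ratio of 0.0769 (counting interval 0.00190 to 0.454, adjusted p = 0.0030), a call that DESeq2 did not make (adjusted p = 0.22). Notch1 did not differ detectably (103 and 120 against 93.8 and 103 CPM, -0.01 ± 0.22), nor did Dll1 (-0.73 ± 0.41) or Jag1 (-0.23 ± 0.35). So 4 of 7 members tested passed, 3 higher and 1 lower, where 12.8% of all 10595 genes did, 5.25% higher and 7.55% lower in arterial-like cells.

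The arterial-like name covers unlike cells. The arterial-like sub-cluster raised 9 of 11 arterial and 4 of 7 capillary markers, and the capillary markers had a sum of 1014 and 1140 CPM there against 143 and 169 in venous-like cells. In a separate clustering at a finer resolution, 19 of the 149 cells formed a cluster in which 11 of 11 arterial markers and no capillary marker were raised. A further 129 formed a cluster that raised 3 of 11 arterial and 4 of 7 capillary markers and was led by Cxcl12, Thrsp, Spock2, Rbp7 and Mfsd2a, and 1 fell in another cluster. The lymphatic-like cluster also raised 3 of 11 arterial markers. Jag1 stood at 143 and 129 CPM in the 19 cells and at 9.89 and 24.2 in the 129. Notch4 stood at 114 and 147 against 29.7 and 60.5 CPM, Jag2 at 199.8 and 441 against 86.6 and 121, and Dll4 at 71.4 and 55.1 against 34.6 and 63.5. Dll4 thus overlapped between the clusters, while the libraries of Jag1, Notch4 and Jag2 did not, with the small cluster higher, and this was not tested. With the 19 cells left out, an alternative added after the data were seen, Notch4 (1.76 ± 0.43, adjusted p = 0.0046), Dll4 (2.08 ± 0.42) and Jag2 (3.00 ± 0.32) still passed edgeR's test against venous-like cells. Without them Jag1 was at -1.27 ± 0.45 (adjusted p = 0.075).

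The venous-like cells also carried fibroblast markers, with a sum of 745 and 1167 CPM and 10 of 10 detected, against 12.6 and 7.69 CPM in arterial-like cells, and their part in the difference was not tested. Dcn was the leading gene of the venous-like sub-cluster. Over all endothelial-like cells Dcn made up 353 and 478 CPM of a fibroblast marker sum of 402 and 604. The Cyp2e1 sub-cluster lay between the others for Notch4 (14.4 and 26 CPM) and Jag2 (37.9 and 57.7) and near the arterial-like cells for Dll4 (39.7 and 34.6). Lymphatic-like cells had 59.4 and 39.7 CPM of Dll4, from 12 UMIs, and no Dll1. Of the other pathway genes, Neurl3 fell by 4.59 ± 0.49 in arterial- against venous-like cells, the gamma-secretase subunits Aph1b and Psen2 by 2.5 ± 0.45 and 1.91 ± 0.33, and the target Hes1 by 0.96 ± 0.18 (all log2). These were 2 of 14 receptor-processing genes, 1 of 6 ligand-endocytosis genes and 1 of 6 targets called, all lower, and none of 10 nuclear-complex genes, 6 inhibitors or 1 atypical ligand was called by edgeR.

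**Figure D3:**
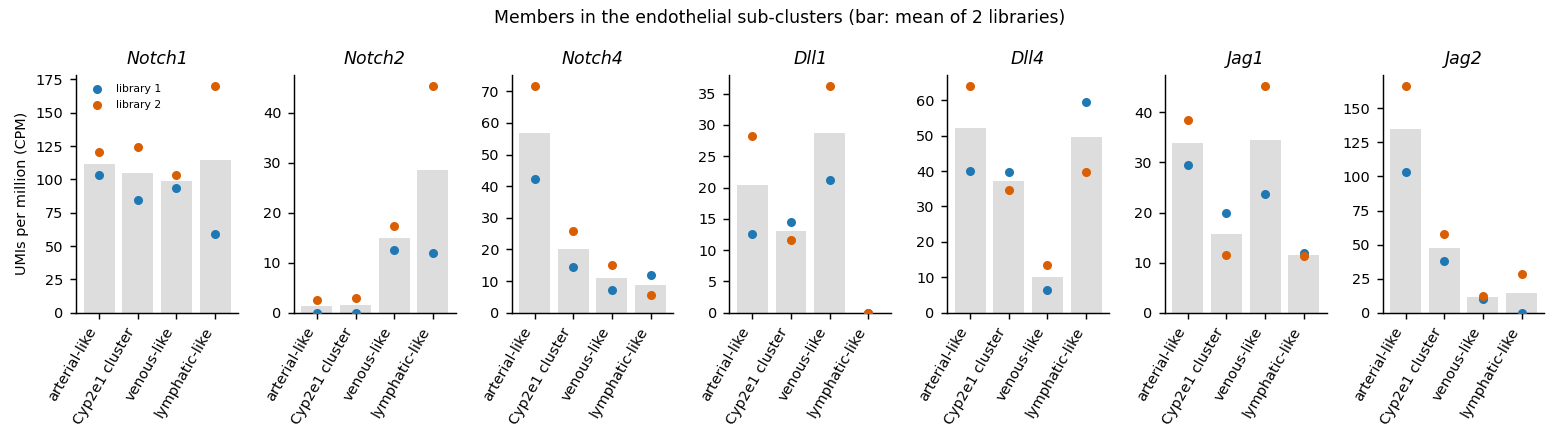
Level in CPM (y axis) of 7 members in the 4 endothelial sub-clusters (x axis); points are the 2 libraries and bars their mean. Notch4 and Jag2 are highest in arterial-like cells, where Notch4 stands at 42.2 and 71.7, while Notch1 lies near 100 CPM in arterial- and venous-like cells alike.

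Because Notch4, Dll4 and Jag2 were high together in arterial-like cells, the 250 bases before their RefSeq start sites (GRCm38.p6) are shown in the direction of transcription, with the GC box (GGGCGG or its reverse complement CCGCCC) in capitals. The windows are chr17:34564045-34564294 (plus strand), chr2:119325534-119325783 (plus) and chr12:112929496-112929745 (minus).
Notch4: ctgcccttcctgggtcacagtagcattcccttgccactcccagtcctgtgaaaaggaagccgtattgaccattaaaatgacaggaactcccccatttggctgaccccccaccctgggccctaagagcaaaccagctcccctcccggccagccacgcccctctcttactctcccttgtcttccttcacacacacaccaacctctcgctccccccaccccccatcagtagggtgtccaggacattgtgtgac
Dll4: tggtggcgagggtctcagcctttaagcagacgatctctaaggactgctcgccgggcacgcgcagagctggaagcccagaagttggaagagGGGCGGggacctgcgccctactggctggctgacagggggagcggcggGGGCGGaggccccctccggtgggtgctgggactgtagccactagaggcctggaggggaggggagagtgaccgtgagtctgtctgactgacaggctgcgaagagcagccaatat
Jag2: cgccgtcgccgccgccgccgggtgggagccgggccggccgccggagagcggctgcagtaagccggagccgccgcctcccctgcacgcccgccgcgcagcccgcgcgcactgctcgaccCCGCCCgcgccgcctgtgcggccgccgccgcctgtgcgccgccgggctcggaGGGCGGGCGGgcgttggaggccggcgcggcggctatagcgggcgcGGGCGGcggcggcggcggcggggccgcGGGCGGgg
The GC box occurred in the windows of Dll4 and Jag2 and not in that of Notch4, and in 32.7% of 32851 windows of the same length. The RBPJ core TGGGAA (21.6% of windows) and the ETS core CCGGAA (12%), searched on both strands, were found in none of the windows of the 9 members. These letters were searched in this stretch only.

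Mural-like cells were compared with fibroblast- and endothelial-like cells at the 10% limit. Here 785 fibroblast-like and 791 endothelial-like cells were used. Notch3 had 83.2 and 110 CPM in mural-like cells against 6.99 and 12 in fibroblast-like cells, a difference of 3.33 ± 0.25 on the log2 scale (edgeR adjusted p = 5.1e-10). Notch2 fell by 1.32 ± 0.26 (19.2 and 27.8 against 48.9 and 65.5 CPM). These were 2 of 5 members tested, against 37.0% of 12709 genes (16.4% higher and 20.5% lower). The fibroblast-like cells used here themselves carried mural markers at 9157 and 8189 CPM, against 31289 and 29314 in mural-like cells. Jag1 (0.08 ± 0.29), Notch1 (0.32 ± 0.35) and Dll1 (1 UMI against 14, a ratio of 0.237, 0.00560 to 1.56) did not pass.

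Mural Notch3 lay mostly in pericyte-like cells. These 46 cells had 417 and 497 CPM of Notch3, and the 136 smooth muscle-like cells 6.55 and 7.42. Jag1 had the same order, at 103 and 133 CPM against 6.55 and 11.1. Notch1 stood at 34.3 and 28 against 11.8 and 11.1 CPM, from 10 and 15 UMIs. Pericyte-like cells held all 15 mural markers, whereas Des, Kcnj8, Abcc9, Higd1b and Vtn were at 0 in smooth muscle-like cells. Endothelial markers had a sum of 246 and 469 CPM in pericyte-like cells, with Pecam1, Cdh5, Tek, Cldn5 and Sox17 at 0. Pericyte-like cells were set apart by clustering, and no test was run between the 2 mural groups.

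**Figure D4:**
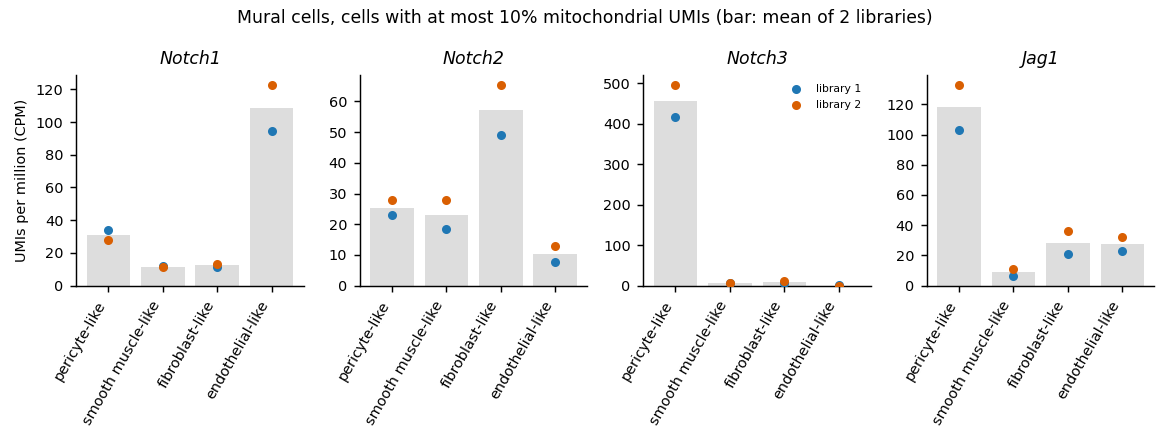
Level in CPM (y axis) of Notch1, Notch2, Notch3 and Jag1 in pericyte-like, smooth muscle-like, fibroblast-like and endothelial-like cells (x axis) at the 10% mitochondrial limit; points are the 2 libraries and bars their mean. Notch3 reaches 417 and 497 in pericyte-like cells and stays at or below 12 in the others.

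Endothelial- and mural-like cells carried different members, and 7 of 8 members tested passed edgeR's test between them, where 44.2% of 12527 genes did, 23.2% higher and 21% lower in endothelial-like cells. Endothelial-like cells had more Notch1, by 2.84 ± 0.26 on the log2 scale (adjusted p = 1.1e-08). They also had more Notch4 (127 UMIs against 3, a ratio of 12.2 with a counting interval of 4.08 to 59.9), Dll1 (115 against 1, 33.1, 5.83 to 1320) and Jag2 (277 against 3, 26.6, 9.01 to 130). Dll4 was at least 14.4-fold higher, since mural-like cells had no Dll4 UMI and 3 UMIs over the class would have been 1.85 CPM. Notch3 was lower in endothelial-like cells, with 2 UMIs against 153, a ratio of 0.00377 (0.000452 to 0.0138). Notch2 was lower by 1.10 ± 0.35 (adjusted p = 0.013), a call that DESeq2 did not make (0.14). Jag1 had 22.8 and 32.2 against 24.5 and 36.6 CPM and did not pass (adjusted p = 0.84).

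Nrarp, a target, was higher in mural- than in fibroblast-like cells by 5.90 ± 0.50 (33.1 and 44.0 against 0.349 and 0.798 CPM), as was Hey2 by 3.94 ± 0.97, a target known from vascular cells. Hey1 fell by 3.09 ± 0.54 and Heyl by 0.80 ± 0.28. In this comparison 5 of 12 receptor-processing genes were lower, 1 of 6 ligand-endocytosis genes was higher, 1 of 10 nuclear-complex genes was higher and 2 lower, 3 of 8 inhibitors and 2 of 2 atypical ligands were lower, and 2 of 8 targets were higher and 4 lower. Against mural-like cells, endothelial-like cells had 10 of 14 receptor-processing genes higher and 1 lower, 4 of 7 ligand-endocytosis genes higher and 1 lower, 5 of 10 nuclear-complex genes higher and 1 lower, 2 of 8 inhibitors higher and 1 lower, the 1 atypical ligand tested (Egfl7) higher, and 1 of 8 targets higher and 4 lower. Furin, the protease that cuts the receptor on its way to the surface, was the receptor-processing gene that was lower, by 0.86 ± 0.23.

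In the epithelium, basal-like cells (1556) were compared with sustentacular-like cells (282). The ligands lay on the basal side, and receptors were called on both sides. Sustentacular-like cells had 0 and 2.34 CPM of Dll1 and 1.10 and 5.86 of Jag2. Dll1 was higher in basal-like cells by 6.42 ± 0.42 on the log2 scale (edgeR adjusted p = 4.9e-07), Jag2 by 5.08 ± 0.33 (4.5e-07), Jag1 by 1.44 ± 0.26 (0.0011) and Notch1 by 1.09 ± 0.20 (0.0014). Notch3 fell by 3.86 ± 0.40 (1.7e-05) and Notch2 by 0.88 ± 0.22 (0.0087). So 6 of 7 members tested passed, where 41.1% of 13967 genes did (21.1% higher and 20% lower), with all 3 ligands tested and Notch1 on the basal side and Notch2 and Notch3 on the sustentacular side. Notch4 did not pass (0.525 and 0.939 against 1.10 and 2.34 CPM). Psen2 was lower in basal-like cells by 4.13 ± 0.16 (8.40 and 9.71 against 213 and 189 CPM) and Ncstn by 1.34 ± 0.15, both parts of gamma-secretase. Dlk2, an atypical ligand, was higher by 5.97 ± 0.25, and the targets Ccnd1 and Bcl11b by 3.67 ± 0.23 and 2.45 ± 0.32, whereas the target Hey1 was lower by 0.85 ± 0.13. In all, 3 of 13 receptor-processing genes were higher and 3 lower, 4 of 10 nuclear-complex genes were higher and 1 lower, 1 of 8 inhibitors was higher, 1 of 3 atypical ligands was higher, 3 of 7 targets were higher and 1 lower, and none of 6 ligand-endocytosis genes was called. Sustentacular-like cells also carried basal markers, with a sum of 1721 and 1835 CPM against 8577 and 8828 in basal-like cells, and their part in these differences was not tested.

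Gland-like cells (452), which secrete into the lumen, had 0 and 1.29 CPM of Dll1, 1.06 and 1.50 of Jag2 and 2.29 and 1.72 of Jag1. Against them, basal-like cells were higher for Dll1 by 6.16 ± 0.41 (edgeR adjusted p = 4.8e-07), Jag2 by 5.29 ± 0.23, Jag1 by 2.72 ± 0.29 and Notch1 by 1.76 ± 0.19. Notch3 fell by 1.86 ± 0.51 (adjusted p = 0.011), and DESeq2 gave 0.055 for it. These were 5 of 7 members tested, against 48.6% of 13935 genes (25.5% higher and 23.1% lower). The 10 most abundant genes took 58.4% of the UMIs of gland-like cells. Folds from edgeR (basal over gland), which use TMM scaling, lay below the ratios of CPM values. That made the rises smaller and the fall of Notch3 larger than its CPM values, 1.84 and 0.783 in basal-like against 2.99 and 2.36 in gland-like cells. Psen2 (by 1.69 ± 0.19) and Furin (by 1.84 ± 0.16) fell among 5 of 14 receptor-processing genes that were lower, with 3 higher. Of the other lists, 4 of 6 ligand-endocytosis genes were lower, 4 of 10 nuclear-complex genes were higher and 1 lower, 2 of 8 inhibitors went each way, 1 of 3 atypical ligands went each way, and 5 of 7 targets were higher and 1 lower.

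Sustentacular-like cells were set beside mature VSN-like cells (705), their neighbours in the sensory epithelium. Notch1 (26.8 and 41.0 against 0.533 and 2.33 CPM), Notch2 (27.4 and 39.9 against 1.07 and 0.698), Notch3 (19.2 and 32.2 against 0.533 and 0.466) and Jag1 (13.1 and 9.96 against 0.711 and 0.466) were all higher in sustentacular-like cells, by 4.76 ± 0.53, 5.29 ± 0.36, 5.70 ± 0.42 and 4.32 ± 0.43 on the log2 scale. Jag2 went the other way and fell by 3.44 ± 0.46. So 5 of 7 members tested passed (edgeR adjusted p from 5.5e-05 to 9.8e-04), where 59.6% of 14137 genes did (28.8% higher and 30.8% lower), a high background for this pair. The targets Hey1 (238 and 307 against 4.09 and 5.35 CPM) and Hes1 (394 and 474 against 11.7 and 21.2) were higher by 5.99 ± 0.19 and 4.89 ± 0.24. Dner, an atypical ligand of neurons, and Dtx1, a Deltex-family regulator, were lower by 6.46 ± 0.26 and 5.85 ± 0.32. In all, 6 of 12 receptor-processing genes were higher and 2 lower, 2 of 6 ligand-endocytosis genes were higher and 3 lower, 3 of 10 nuclear-complex genes went each way, 2 of 8 inhibitors were higher and 3 lower, 1 of 3 atypical ligands went each way, and 6 of 8 targets were higher and 1 lower.

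The neural lineage (progenitor-, precursor- and immature neuron-like cells together) was compared with endothelial-like cells because Dll4 occurs in both. Of the 9 members, 8 passed edgeR's test, where 64.6% of 14329 genes did (33.9% higher and 30.7% lower in the lineage), and 7 of the members were lower in the lineage. Dll4 fell by 1.55 ± 0.27 on the log2 scale (9.09 and 13.8 against 22.7 and 28.6 CPM, adjusted p = 8.6e-05), Notch1 by 2.29 ± 0.19, Notch4 by 2.88 ± 0.37, Dll1 by 2.60 ± 0.39, Jag1 by 3.49 ± 0.32, Notch2 by 2.63 ± 0.48 and Jag2 by 1.07 ± 0.22. Most lineage cells were immature neuron-like (479, against 79 progenitor-like and 79 precursor-like). Against the other lineage cells, progenitor-like cells raised 5 of 5 progenitor markers but also 7 of 10 fibroblast and 4 of 15 mural markers. The part of these in the levels was not tested. In progenitor-like cells alone, Notch1 had 55.7 and 111 CPM against 92.3 and 116, and Jag2 16.9 and 37.8 against 34.8 and 48.8. For these 2 genes the ranges of progenitor- and endothelial-like cells overlapped, although progenitor-like cells were the lower in each library. For the other lowered members the ranges did not overlap. Progenitor-like cells alone were not tested. Dll3 was at least 5.74-fold higher in the lineage, since endothelial-like cells had no Dll3 UMI. Notch3 did not pass (10 UMIs against 1). The precursor-like cells alone, an alternative added after the data were seen, had Dll4 at 0.49 ± 0.33 above endothelial-like cells (adjusted p = 0.21), so that Dll4 in vessels was above the lineage as a whole and could not be told apart from the precursor-like cells. Hes5, a target, had 43.0 and 55.3 CPM in the lineage and no UMI in endothelial-like cells, and Hes1 fell by 3.30 ± 0.16 in the lineage. Receptor-processing genes were lower in 12 of 14 cases and higher in 1, ligand-endocytosis genes lower in 5 of 7 and higher in 1, nuclear-complex genes lower in 7 of 10 and higher in 1, inhibitors lower in 2 of 8 and higher in 2, atypical ligands 1 of 2 each way, and targets higher in 5 of 10 and lower in 3.

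Ensheathing-like cells (71) were compared with fibroblast-like cells, and 1 of 4 members tested, Notch1, passed, where 22.5% of 11674 genes passed (9.56% higher and 13% lower). Notch1 was higher by 3.15 ± 0.31 on the log2 scale (edgeR adjusted p = 2.4e-08). Notch2 (-0.10 ± 0.36) and Jag1 (-0.38 ± 0.45) did not pass, and Notch3 had 1 UMI against 28 (a ratio of 0.235, counting interval 0.00574 to 1.42). Against the Pi16 sub-cluster of fibroblast-like cells alone, an alternative added after the data were seen, Notch3 was lower and passed (1 UMI against 25, adjusted p = 0.015). The target Hey2 had 144 and 114 CPM in ensheathing-like cells and no UMI in fibroblast-like cells, and Nrarp was higher by 5.69 ± 1.02. Endothelial markers had a sum of 1913 and 2139 CPM here, of which Cldn5 made up 1685 and 2043. The other 10 endothelial markers came to 228 and 95.9 CPM, against 6099 and 5756 in endothelial-like cells, with Tek and Sox17 at 0. Fibroblast markers had a sum of 749 and 1261 CPM in ensheathing-like cells (9 of 10 detected), against 33402 and 32351 in fibroblast-like cells. Basal markers came to 0 and 247 CPM in ensheathing-like cells. The part of these markers in the differences was not tested. Of the lists, 1 of 12 receptor-processing genes was higher (Adam10, by 1.84 ± 0.31), none of 4 ligand-endocytosis genes and none of 2 atypical ligands was called by edgeR, 1 of 10 nuclear-complex genes was lower, 2 of 8 inhibitors went each way, and 5 of 9 targets were higher and 2 lower.

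Among immune cells, macrophage-like cells (1684) had less Notch1 than neutrophil-like cells (754), by 2.49 ± 0.26 on the log2 scale (12.1 and 16.2 against 105 and 64.2 CPM, edgeR adjusted p = 1.4e-07). Notch4 fell by 2.67 ± 0.72 (adjusted p = 0.0054), on 13 neutrophil UMIs of which library 1 held 11. Notch2 fell by 0.62 ± 0.24 (adjusted p = 0.044), a call lost under DESeq2, without the filter on low counts, in the fit of all classes and at the 10% limit. These were 3 of 5 members tested, against 42.0% of 12041 genes (22.8% higher and 19.2% lower). Neutrophil-like cells were shallow, with a median of 1593 UMIs. Within the macrophage-like cells, Notch2 stood at 43.9 and 55.3 CPM in the cluster led by Mrc1, at 21.9 and 37.5 in that led by Cd72 and at 13 and 18.7 in a shallow cluster with a median of 842 UMIs. Within the neutrophil-like cells, Notch4 stood at 33.3 and 7.23 CPM in the cluster led by Il1r2, and library 1 again lay above library 2. Among the lists, 2 of 14 receptor-processing genes were higher in macrophage-like cells and 4 lower, 1 of 7 ligand-endocytosis genes was higher and 3 lower, 5 of 10 nuclear-complex genes were higher and 4 lower, 2 of 7 inhibitors were lower, 1 of 2 atypical ligands and 2 of 6 targets were higher.

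T cell-like cells (275) had more Jag1 than macrophage-like cells, by 2.45 ± 0.52 on the log2 scale (20 and 27.1 against 2.16 and 4.33 CPM, edgeR adjusted p = 1.4e-05). Jag1 was the 1 of 5 members tested that passed, where 34.6% of 11999 genes did (14% higher and 20.6% lower), and it rests on 20 UMIs in 14 T cell-like cells. Notch1 (-0.66 ± 0.48) and Notch2 (-0.32 ± 0.30) did not pass and overlapped between libraries. The target Hey1 was higher in T cell-like cells by 3.72 ± 0.43 (32.0 and 65.1 against 2.43 and 2.98 CPM), and Bcl11b, a target that T cells are known to need, by 6.08 ± 0.31. In all, 1 of 14 receptor-processing genes was higher and 5 lower, 2 of 7 ligand-endocytosis and 2 of 10 nuclear-complex genes were lower, 2 of 8 inhibitors were higher and 1 lower, 1 of 2 atypical ligands was lower, and 3 of 5 targets were higher and 2 lower.

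To compare shares of cells across depths, each cell was thinned to 2000 UMIs. Dll1 was then seen in 226 of 1541 basal-like cells (14.7%, exact 95% binomial interval 12.9 to 16.5; 36.8% before thinning) and in 27 of 633 endothelial-like cells (4.27%, 2.83 to 6.15), against 0 of 1208 macrophage-like cells (upper limit 0.305%). Jag2 was seen in 18.8% (16.8 to 20.8) of basal-like, 10.0% (7.60 to 12.9) of non-sensory epithelial-like, 9.22% (7.19 to 11.6) of mature VSN-like and 9.16% (7.03 to 11.7) of endothelial-like cells. Macrophage-like cells had 0.166% for Jag2. Basal-like cells thus lay above the others, and the intervals of non-sensory epithelial-, mature VSN- and endothelial-like cells overlapped. Notch1 was seen in 24.6% (14.8 to 36.9) of 65 ensheathing-like and 17.5% (14.7 to 20.7) of endothelial-like cells, against 10.8% (9.33 to 12.5) of basal-like and 0.142% of mature VSN-like cells. Notch2 was seen in 20% (12.3 to 29.8) of cartilage-like and 16.8% (10.3 to 25.3) of monocyte-like cells, and in none of 705 mature VSN-like cells (upper limit 0.522%). Of 754 neutrophil-like cells, 153 were deep enough to be thinned. These intervals cover counting error only, and the cells of a class come from the same 2 libraries.

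**Figure D5:**
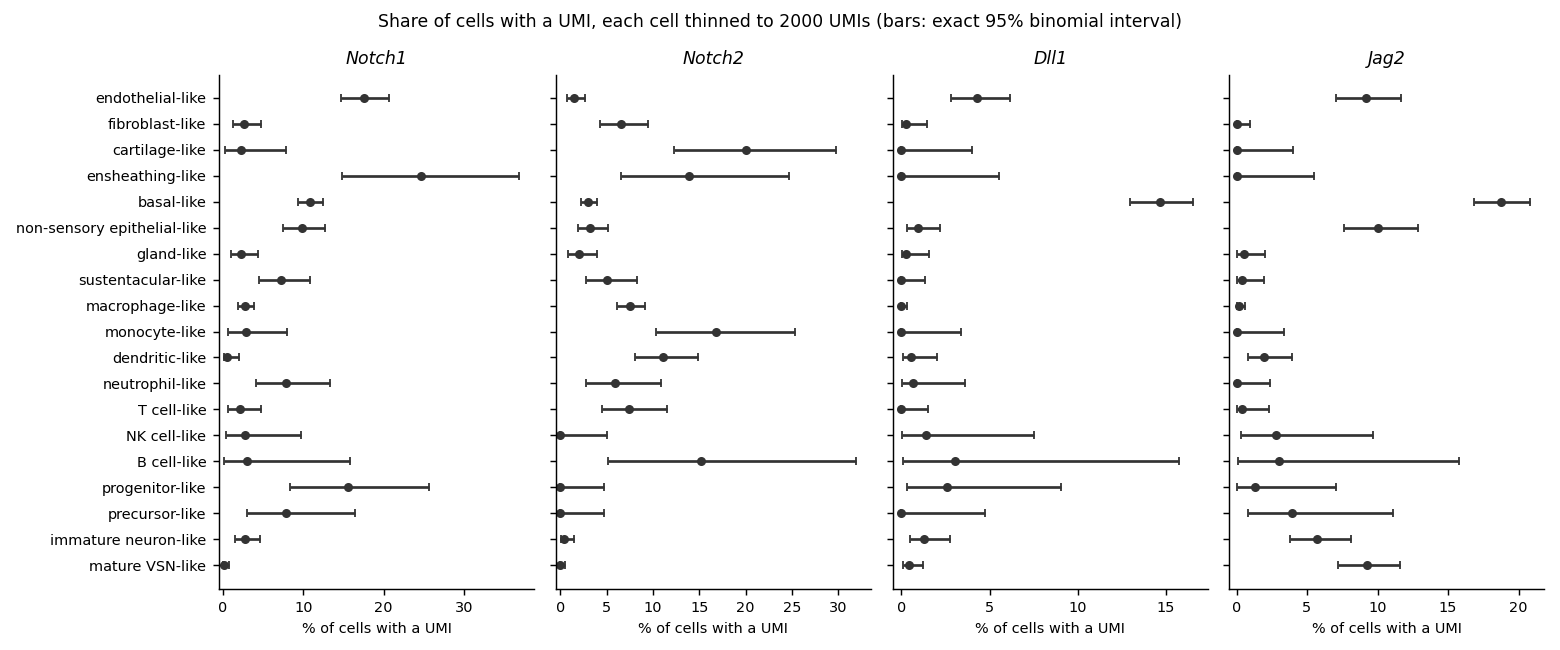
Share of cells with at least 1 UMI (x axis, percent) of Notch1, Notch2, Dll1 and Jag2 in 19 classes (y axis) after each cell was thinned to 2000 UMIs; bars are exact 95% binomial intervals. Basal-like cells stand alone for Dll1 at 14.7% and lead for Jag2 at 18.8%.

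In thinned basal-like cells, a UMI of Jag2 was seen in 18.6% (13.7 to 24.3) of the 226 cells with a Dll1 UMI and in 18.8% (16.7 to 21) of the 1315 cells without, so that Dll1 and Jag2 were not seen together more often than apart at this depth. Notch1 was seen in 11.9% (8.02 to 16.9) of the cells with Dll1 and 10.6% (9.03 to 12.4) of those without. In endothelial-like cells, Notch1 was seen in 8 of 27 cells with Dll4 (29.6%, 13.8 to 50.2) and in 17% (14.1 to 20.2) of the others, and these intervals overlapped.

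The genes whose levels over the 19 classes were most like those of a member were found among 14208 genes by Pearson's r on log2(mean CPM + 1), as a description of class means that share 2 libraries. For Notch4 they were Rasip1 (0.82), Sema6b and Adgrg3. For Dll4 they were Dnah10 (0.90), Deup1 (0.89) and Gm14207 (0.88), of which Gm14207 is the gene that overlaps Dll4 on the opposite strand. For Dll1 they were Il20rb (0.72), Jag2 (0.71) and Gm11361, and Jag2 was therefore the one member among the nearest genes of another. For Notch3 they were Lrrc8e (0.83), Cyp4f15 and Ifne, each highest in sustentacular-like cells. For Jag2 they were Rgs12 (0.81), Pak6 and Sgsm1, and for Jag1 Emp1 (0.88), Map2k5 and Evc2. For Notch1 they were Ndst1 (0.79), Phf21a and Id1, for Notch2 Smim3 (0.88), Mocs1 and Gm26532, and for Dll3, with 30 UMIs, Melk, Sapcd2 and Eme1 (all 0.99).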

How the data were processed

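Cells of the vomeronasal organ were sequenced as 2 droplet libraries, and the authors deposited raw UMI counts per gene and cell barcode. Per the labels and the submitters' processing notes, bcl2fastq, Cell Ranger 4, Seurat 3.2.3 and the mm10 build were used, and both libraries were merged. Whether merging thinned the deeper library, and how strand was counted, are not given in the sources used here. The deposited counts summed to 108005626 and 95442231 UMIs over 12814 and 11270 barcodes, and barcodes were assigned to a library by the number they carry.

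Cells with at most 5% mitochondrial UMIs were kept. Clusters were made with Seurat 5.3.0 (R 4.3.3) from 2000 variable genes without 62 Notch pathway genes, using 30 principal components at resolution 0.8 (15 and 0.5 within classes). A cluster took a name only where at least 3 of that name's markers were raised 2.5-fold, and a sub-cluster where they were raised 1.5-fold against its own compartment. Exceptions were 2 stromal sub-clusters (201 cells) named fibroblast-like and 1 of the lineage (101 cells) named immature neuron-like, which kept the name of their compartment. Shallow or mixed clusters, and at the 10% limit a cluster with tuft and one with ciliated markers, had no name. Scrublet called 2.14% and 1.96% of the kept cells doublets, which were kept, and left out as an alternative. The calls lay below the expected rate of 0.08 that Scrublet was given, so uncalled doublets may remain under that alternative. UMIs were summed per library and class, so that each class gave 2 sums. Every gene whose sums reached 10 UMIs was tested with edgeR 4.0.16 (quasi-likelihood, TMM scaling, Benjamini-Hochberg over all genes tested, threshold 0.05), which gives every adjusted p here unless DESeq2 is named. DESeq2 1.42.0 was an alternative. Mural-like cells were taken at a 10% mitochondrial limit, chosen after the data were seen. On simulated counts the test recovered 90% of 4-fold and 47% of 2-fold changes for arterial- against venous-like cells (10628 genes). Changes were planted only in genes with many more UMIs than the minimum of 10, and all genes shared 1 dispersion (0.0129). These shares therefore do not cover members with few UMIs.

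The 9 members were named whatever their values. Other pathway genes were named as the 2 largest called changes in each direction per list that were alike in both libraries, and a choice of these is given. The members, marker lists and pathway lists were chosen with earlier results of these data known. For a class with 0 UMIs, 3 counts set the upper limit, which covers counting error only. Positions come from GENCODE vM21 (GRCm38) and start sites from RefSeq.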

Additional observations from a re-analysis of the deposited data

How the results depend on the processing

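The 11 comparisons were recomputed under the alternatives, and 102 of 104 counts of members called stayed within 1.5 times their main value. T cell- against macrophage-like cells gave 2 members in place of 1 at the 10% limit, and ensheathing- against fibroblast-like cells 2 in place of 1 (Notch3, -3.15) without the sub-clusters in which the list of their own name was not raised. With the library number as a replicate block no count of members called changed (7 of 8 for endothelial- against fibroblast-like cells, 4 of 7 for arterial- against venous-like cells). The block gave 6326 in place of 5630 genes called for endothelial- against fibroblast-like cells. Same-numbered sums come from the same library, and their deviations from the class means correlated at 0.0466 to 0.211 over the 11 comparisons. The main fits left this pairing out, and the block is the alternative that includes it. DESeq2 called fewer genes: 3605 in place of 5630 (endothelial/fibroblast), 2770 of 4698 (mural/fibroblast), 3580 of 5541 (endothelial/mural), 3717 of 5741 (basal/sustentacular), 2638 of 4155 (T cell/macrophage), 1651 of 2628 (ensheathing/fibroblast) and 658 of 1356 (arterial/venous). At the 10% limit the ensheathing/fibroblast count was 4466.

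Of 814 member values under alternatives, 785 kept their direction and, where a test was run, their side of the threshold. Another 7 lost a call, 3 gained one and 19 changed sign. Values without 1 library were judged by sign alone. Besides Notch3, the gained calls were Dll1 (sustentacular/mature VSN, 1.55 ± 0.48, edgeR adjusted p = 0.019) and Jag2 (macrophage/neutrophil, -1.75 ± 0.46, 0.010), both at the 10% limit. Of the members called, Dll4 in the neural lineage against endothelial-like cells changed sign, to 0.49, with precursor-like cells alone. The other 18 were called neither in the main value nor where the sign changed. Without library 1 and without library 2, respectively, Jag1 was -0.18 and 0.067 (endothelial/fibroblast), -0.051 and 0.16 (mural/fibroblast), -0.78 and 0.00028 (ensheathing/fibroblast) and -0.46 and 0.096 (arterial/venous), Dll1 was 0.96 and -1.20 (sustentacular/mature VSN), Jag2 was 0.11 and 0.049 (macrophage/neutrophil) and Notch4 was 0.35 and -1.47 (T cell/macrophage). The 10% limit gave Notch4 0.088 (basal/gland) and 0.011 (sustentacular/mature VSN), Jag1 -0.90 (macrophage/neutrophil), and Notch1 0.32 and Jag2 1.24 (T cell/macrophage). Without doublets Dll1 was -0.24 (sustentacular/mature VSN) and Notch1 0.047 (arterial/venous), with all 2000 variable genes Notch1 was 0.014 (arterial/venous), without the filter Jag2 was 0.13 (macrophage/neutrophil), and at sub-clustering resolution 1.0 Jag1 was 0.0055 (endothelial/mural). The causes were not tested. Scaling moved the median of all genes by -0.108 with all classes in one fit (basal/sustentacular), by 0.161 without the filter (macrophage/neutrophil) and by -0.143 with precursor-like cells alone, where the share of calls that were higher went from 52.5% to 40.8%. Leaving out 1 library leaves no residual degrees of freedom, so those are values with no test, and the mural comparisons have no value at the 5% limit. By the mean over cells in place of summed UMIs, each of the 9 members kept its highest class. Members with few UMIs, Dll3 above all (30), are limited by depth.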

Other observations

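Some values lie outside the comparisons. Dendritic-like cells (367), which were in no comparison, had all 9 members but at low levels apart from Notch2 (48.4 and 61.6 CPM), with 12 Notch4 UMIs and 22 Dll1 UMIs. Cartilage-like cells (93) combined the highest mean Notch2 level of any class, in a range that met that of monocyte-like cells, with no UMI of Notch3, Notch4, Dll1, Dll3, Dll4 or Jag2. They also carried fibroblast markers, with a sum of 20546 and 18909 CPM and 10 of 10 detected. The class had 32 cells at the 10% limit.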
